A study of Mus musculus with 2 samples.

Results

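The genes of the mouse beta globin locus were examined in MEL cells, a mouse erythroleukemia line that makes hemoglobin when dimethyl sulfoxide (DMSO) is added. The 5 genes Hbb-bs, Hbb-bt, Hbb-y, Hbb-bh1 and Hbb-bh2 were chosen by name and found by Ensembl identifier, 5 of the 43346 genes in the tables. The libraries were 2 single-end polyA RNA-seq libraries of 1 group, cells held in 2% DMSO for 5 days, numbered by the labels as biological replicates 1 and 2. The labels give both libraries the same cell sample identifier and name no clone, so the spread between them may be technical in part. There was no untreated group among the samples, and every value below is a level in treated cells.

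Hemoglobin is built from alpha-like and beta-like globin chains around heme. In the mouse the beta-like genes lie in a row, some used in the embryo and others in the adult. Hbb-y and Hbb-bh1, the embryonic genes, lie nearest to the locus control region, a cluster of enhancers beyond Hbb-y, and the adult genes Hbb-bs and Hbb-bt lie farthest from it. MEL lines descend from DBA/2 mice, whose adult beta genes are another haplotype than the one in the reference assembly of C57BL/6J. RefSeq lists 2 such adult genes, Hbb-b1 and Hbb-b2, outside the reference chromosome, and these were not analysed here. Whether the haplotype of the cells affects the split of reads between Hbb-bs and Hbb-bt was not tested.

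Depth was 26149725 estimated reads in replicate 1 and 14149299 in replicate 2. All 4 erythroid markers (Slc4a1, Alas2, Epb42 and Ermap) reached 1 TPM, a level that corrects reads for length and depth, in each library. So did 4 of 6 megakaryocyte markers, led by Itga2b at 74.7 and 149 TPM in replicates 1 and 2. Gp6, at 0 TPM in both libraries, and Ppbp, at 0.12 and 0 TPM, did not. Of all protein-coding genes 45.5% did. Of 7 granulocyte and macrophage markers 0 did, with Elane, S100a8 and S100a9 at 0 in both and summed levels of 1.43 and 3.98 TPM. Of 5 lymphocyte markers 1 did, Ptprc, a gene of blood cells in general, at 9.88 and 4.95 TPM. Cd3e had 2.05 and 0.58 TPM, Pax5 was at 0 in both libraries, and the summed levels of the 5 were 12.3 and 5.84 TPM.

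In the reference assembly the adult genes are near copies of each other, and its sequences show how much of a read can tell these copies apart. All 5 genes have 3 coding exons of 92, 223 and 126 bases, the stop codon left out. Over these 441 bases Hbb-bs and Hbb-bt differ at 1 base, an identity of 99.8%. The difference is C417T, the base of Hbb-bs first and that of Hbb-bt last, counted from 1 at the A of the start codon. Their first 416 coding bases are identical. The stretch below covers coding bases 395 to 439 in exon 3 of each gene (GENCODE M21 transcripts, mm10, minus strand), 5′ to 3′. It is shown because it holds the base that separates the adult coding sequences. Capitals mark the base by which the adult genes differ, and in the other genes every base that differs from Hbb-bs.
Hbb-bs, chr7:103826670-103826714: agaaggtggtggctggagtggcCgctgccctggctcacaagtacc
Hbb-bt, chr7:103812661-103812705: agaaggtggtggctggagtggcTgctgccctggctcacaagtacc
Hbb-y, chr7:103851879-103851923: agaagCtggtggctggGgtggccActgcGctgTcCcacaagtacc
Hbb-bh1, chr7:103841757-103841801: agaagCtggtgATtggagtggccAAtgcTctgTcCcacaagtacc
Hbb-bh2, chr7:103839150-103839194: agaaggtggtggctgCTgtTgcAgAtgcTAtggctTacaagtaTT

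The embryonic genes and Hbb-bh2 stand well apart from the adult genes. Over the coding bases Hbb-bs is 74.4% identical to Hbb-y, 73.9% to Hbb-bh1 and 70.3% to Hbb-bh2, and Hbb-y and Hbb-bh1 are 76.4% identical to each other. The lengths used for scaling in the tables are 44 bases short of the full lengths, as reads of 45 bases would give. Of the 45-base windows of the coding transcript in GENCODE M21, 33.9% are found in Hbb-bs and in no other of the 5 genes, 198 of 584 windows. This transcript has 628 bases in M21 and 778 in the annotation used for quantification. The share of unique windows in the longer form was not measured. For Hbb-bt, with 703 bases in both, the share is 41.4%, 273 of 659. Windows that overlap the coding sequence make up 99 of the 198 and 99 of the 273, and the rest lie in the untranslated ends. For Hbb-y, Hbb-bh1 and Hbb-bh2 every window of this length occurs in no other gene of the annotation. By the reference sequences, a read from an adult gene can thus often be placed on either copy, and a read from the embryonic genes on 1 gene of the annotation. How alike the adult genes of the haplotype in these cells are was not analysed.

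Adult beta globin genes held nearly all of the beta-like signal. Hbb-bs (chromosome 7, 103826534 to 103828096, minus strand, mm10), the more abundant adult gene here, stood at 8546 TPM in replicate 1 and 12945 in replicate 2, a mean of 10745 ± 3110.1 (SD, n = 2). It ranked 7th and 5th in replicates 1 and 2 among 21474 protein-coding genes. By mean TPM it came between the mitochondrial genes mt-Co1 at 13249 and mt-Nd4 at 10131. Hbb-bs took 115706 and 102815 estimated reads, 0.442% of all reads in replicate 1 and 0.727% in replicate 2. The exact binomial 95% intervals of these shares were 0.440% to 0.445% and 0.722% to 0.731%, and like all intervals below they cover counting error only. In bulk RNA, fewer expressing cells and less RNA per cell cannot be told apart.

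Hbb-bt (chromosome 7, 103812524 to 103813996, minus strand), the other adult gene, stood at 1641 and 1846 TPM, a mean of 1744 ± 144. It held 26205 and 16656 estimated reads and ranked 42nd and 47th in the libraries. By mean TPM it came between Rps6 at 1753 and Rad21 at 1659. The lowest Hbb-bs value was above the highest Hbb-bt value. With only 2 libraries no likeness of pattern to other genes can be measured, and these neighbours are close in level alone.

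The posterior estimates deposited with the tables show how the reads were divided between the copies. The posterior SD of the read count was the same for Hbb-bs and Hbb-bt, 258 reads in replicate 1 and 169 in replicate 2. For Hbb-bt this was 0.984% and 1.02% of its reads, and for Hbb-bs 0.223% and 0.165%. The posterior mean TPM of Hbb-bs was 8143 with bounds of 8081 to 8204 in replicate 1, and 11900.0 with bounds of 11811 to 11987 in replicate 2. For Hbb-bt the posterior means were 1565 (bounds 1531 to 1602) and 1700 (bounds 1657 to 1742). The TPM of both genes lay above the upper bound in both libraries, 1.02 to 1.08 times as high. No source used here states the level of these credibility bounds.

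**Figure D1:**
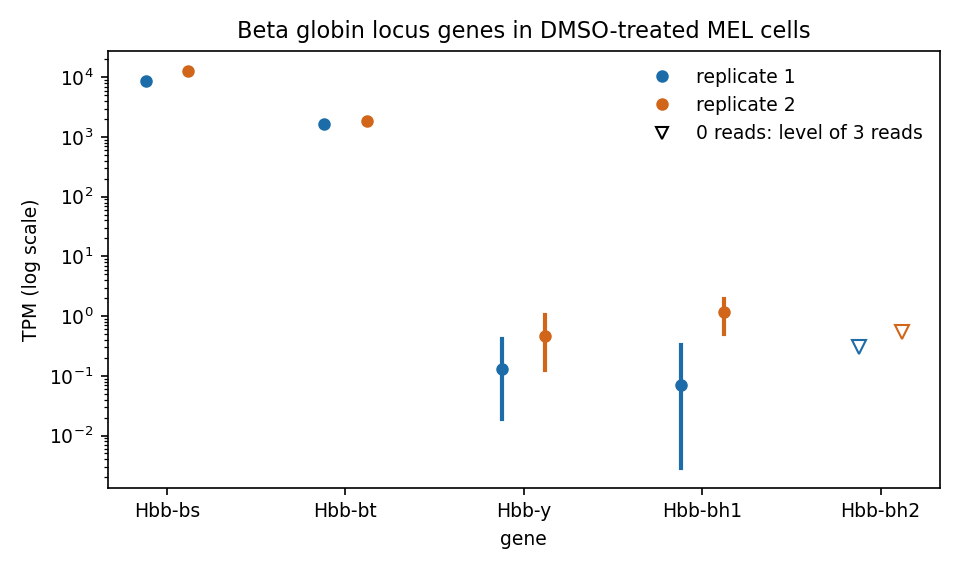
TPM (log scale) of the 5 beta globin genes in the 2 libraries, where points are deposited TPM, vertical lines the deposited credibility bounds of TPM, and open triangles the level that 3 reads would give where a library had 0 reads. Hbb-bs and Hbb-bt sit above 1641 TPM in both libraries, and no other gene passes 1.15.

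The embryonic genes were near the limit of detection, with 1 to 9 reads per library. Hbb-y (chromosome 7, 103851749 to 103853216, minus strand), the gene of the embryonic epsilon-y chain, had 2 reads in replicate 1 and 4 in replicate 2, or 0.13 and 0.47 TPM. Its deposited bounds were 0.0189 to 0.408 TPM and 0.123 to 1.03 TPM. Hbb-bh1 (chromosome 7, 103841637 to 103843164, minus strand), an embryonic gene of the primitive red cell lineage, had 1 read and 9 reads, or 0.07 and 1.15 TPM, with bounds of 0.00286 to 0.332 and 0.510 to 1.92. The ranges of the 2 genes overlap, with Hbb-y the higher in replicate 1 and Hbb-bh1 the higher in replicate 2.

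Hbb-bh2 (chromosome 7, 103839124 to 103840520, minus strand), a beta-like gene between the adult and embryonic genes, had 0 reads in both libraries. At these depths 3 reads would give 0.310 TPM in replicate 1 and 0.548 in replicate 2, and 0 reads allow a level up to these. The beta globin pseudogenes Hbb-bh0 and Hbb-bh3 also had 0 reads in both. For Hbb-bh0, which is 129 bases long, the level that 0 reads allow is 1.46 and 2.58 TPM, and for Hbb-bh3 0.482 and 0.852. Of the 5 genes, 2 (Hbb-bs and Hbb-bt) reached 1 TPM in each library, as did 45.5% of protein-coding genes.

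Embryonic reads made up 3 of 141914 beta-like reads in replicate 1, a share of 0.00211% with an exact binomial 95% interval from 0.000436% to 0.00618%. For replicate 2 the count was 13 of 119484, or 0.0109%, with an interval from 0.00579% to 0.0186%. By TPM with the coding transcripts of Hbb-bs only, the shares were 0.00547% and 0.0266%, against 0.00196% and 0.0110% with all its transcripts. Hbb-bh1 accounted for 1 of the 3 and 9 of the 13. The intervals of the read shares overlap between 0.00579% and 0.00618%.

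Along the chromosome nearly all signal of the genes measured lay at the adult end of the cluster. The 5 genes span 40.7 kb, with gaps of 12.5 kb between Hbb-bt and Hbb-bs, 11.027 kb between Hbb-bs and Hbb-bh2, 1.12 kb between Hbb-bh2 and Hbb-bh1 and 8.58 kb between Hbb-bh1 and Hbb-y. Olfactory receptor genes lie on both sides. Within 100 kb of the cluster and within it, 16 other genes are annotated, and 14 of them were in the tables. All 12 olfactory receptor genes among these had 0 reads in both libraries, from Olfr67, the nearest beyond Hbb-bt, to Olfr66, the nearest beyond Hbb-y. They were Olfr243, Olfr628, Olfr629, Olfr630, Olfr69, Olfr68 and Olfr67 on the Hbb-bt side and Olfr66, Olfr64, Olfr631, Olfr632 and Olfr633 on the Hbb-y side. Among all 21474 protein-coding genes, 6335 were at 0 TPM in both libraries. The pseudogene Gm15115, between Hbb-bs and Hbb-bh3, also had 0 reads. The pseudogene Dnajc19-ps had 2.08 estimated reads in replicate 1 and 0 in replicate 2, and 0 of the 14 genes reached 1 TPM in both libraries. Of protein-coding genes 45.5% did.

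**Figure D2:**
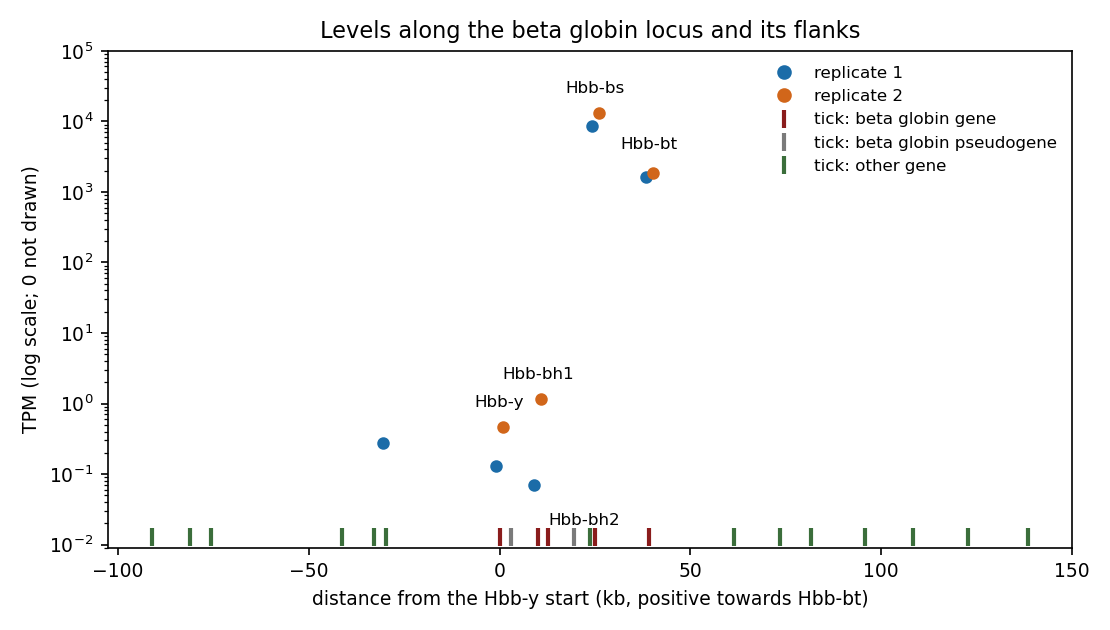
TPM (log scale) of each annotated gene of the beta globin cluster and its 100 kb flanks against the distance of its start from the start of Hbb-y in kb, where points are libraries and ticks mark gene starts, drawn also for genes at 0. The points at 1641 TPM and above stand at Hbb-bs and Hbb-bt, no point is drawn for Hbb-bh2, and 1 neighbour, a pseudogene, has a point at 0.28 TPM in replicate 1.

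The promoters of the genes are shown for the 4 members with a RefSeq window (build GRCm38.p6, minus strand), since the genes of this row stood orders of magnitude apart. Each line gives the 120 bases before the RefSeq start, 5′ to 3′. Capitals mark, on either strand, the TATA box words TATAA and the longer TATAAA, which overlap, the CCAAT box word CCAAT and the word CACCC of the box that Klf1 binds. TATAA was added to the words after the sequences had been seen.
Hbb-bs, chr7:103827929-103828048: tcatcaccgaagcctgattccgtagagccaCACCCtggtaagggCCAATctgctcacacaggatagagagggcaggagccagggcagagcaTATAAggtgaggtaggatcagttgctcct
Hbb-bt, chr7:103813924-103814043: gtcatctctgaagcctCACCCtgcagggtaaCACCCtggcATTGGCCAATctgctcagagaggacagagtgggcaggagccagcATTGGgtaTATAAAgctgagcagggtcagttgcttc
Hbb-y, chr7:103853208-103853327: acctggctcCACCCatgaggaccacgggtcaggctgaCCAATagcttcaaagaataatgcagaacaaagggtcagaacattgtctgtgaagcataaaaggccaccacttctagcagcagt
Hbb-bh2, chr7:103840522-103840641: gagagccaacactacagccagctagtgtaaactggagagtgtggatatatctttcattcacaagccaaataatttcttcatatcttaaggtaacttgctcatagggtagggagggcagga

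Each word marked in the Hbb-bs promoter had a match at nearly the same place in Hbb-bt, which also held further words. In Hbb-bs, CACCC began 90 bases before the start, CCAAT 76 and TATAA 29. In Hbb-bt, CACCC began at 104 and 89 bases, CCAAT on the given strand at 75 and TATAAA at 28. CCAAT on the other strand began at 80 and 36 bases in Hbb-bt. These and the CACCC at 104 had no match in the Hbb-bs stretch. Hbb-y, near 0 in these libraries, also held CACCC, at 111 bases, and CCAAT, at 83 bases. CCAAT and CACCC occurred together in this window in 3 of the 4 genes and in 6.23% of 32851 RefSeq promoters. Hbb-bh2 held none of these words there. TATAA was found in 11.8% of all promoters, CCAAT in 21.3% and CACCC in 31.7%, on either strand.

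Binding words of GATA factors were searched on both strands as AGATAA, then as AGATAG, then as TGATAA and last as TGATAG. None of the 4 promoters held one within 120 bases, where 12.8% of all promoters did. Within 250 bases 3 of the 4 did, against 26.5% of all promoters. These were AGATAA at 210 bases in Hbb-bs and at 167 bases in Hbb-bh2, and TGATAA on the other strand at 162 bases in Hbb-y. The matches describe the sequences and bear on no binding.

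The transcripts of Hbb-bs showed an uneven split. The tables hold 3 for this gene and 1 for each other member. The highest in TPM was ENSMUST00000131960, which the annotation classes as a retained intron, at 6529 TPM in replicate 1 and 8691 in replicate 2. The full-length coding transcript ENSMUST00000023934 stood at 2013 and 4245 TPM. A further coding transcript, ENSMUST00000153218, which in M21 has an added upstream exon and an incomplete 3′ end, had 3.62 and 7.69 TPM on 31.8 and 38.2 estimated reads. The retained-intron transcript held 76.4% of the TPM of Hbb-bs in replicate 1 and 67.1% in replicate 2, a mean of 71.8% ± 6.55 (SD, n = 2). Its share of the estimated reads was 69.0% and 58.5%. In both libraries it was above the full-length coding transcript, 158 against 48.8 reads per scaled base in replicate 1 and 119 against 58.1 in replicate 2.

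In GENCODE M21 the retained-intron transcript has no exon 1 and ends inside exon 3. It starts within the first intron, which is 113 bases long, and keeps the last 55 of them before exon 2. These 55 bases are shown with the first 20 of exon 2 in capitals (chr7:103827651-103827725, minus strand, 5′ to 3′), as the stretch that would set its reads apart.
ENSMUST00000131960: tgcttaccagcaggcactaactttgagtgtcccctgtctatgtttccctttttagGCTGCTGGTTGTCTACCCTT

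In M21, 247 of its 300 windows of 45 bases, 82.3%, also occur in the full-length coding transcript, and the same number occur in Hbb-bt. Lengths differ between the M21 sequences and the tables, which use M4. The retained-intron transcript has 344 bases in M21 and 549 in the tables, and the full-length transcript 628 and 778. How many of the reads given to the retained-intron transcript came from the intron was not tested.

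**Figure D3:**
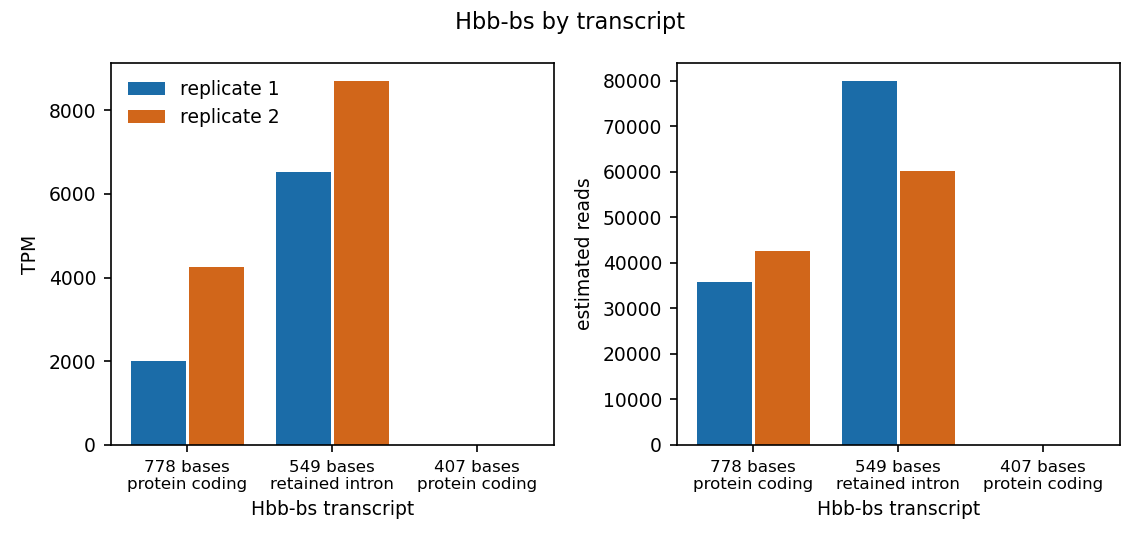
Hbb-bs transcripts by library, in TPM on the left and in estimated reads on the right, with transcripts named by their length in the tables and their class in GENCODE M21. The 549-base retained-intron transcript is the tallest in both panels for both libraries, and the 407-base transcript, at 3.62 and 7.69 TPM, is too low to see.

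The ratio of the adult genes depended on how Hbb-bs was counted. By gene TPM Hbb-bs exceeded Hbb-bt 5.21-fold in replicate 1 and 7.01-fold in replicate 2, a mean of 6.11 ± 1.28. By estimated reads it was 4.42-fold and 6.17-fold. With all Hbb-bs reads placed on the 778-base transcript, a reckoning added after the data were seen, it was 3.96-fold and 5.54-fold. With the coding transcripts only, also added later, it was 1.23-fold and 2.30-fold. Hbb-bs was the higher in both libraries under these 4 ways and by posterior mean TPM. Each of these ways rests on a deposited division of reads between the genes, so the order was not tested against another division. The Hbb-bt share of adult beta reads was 18.5% (95% interval, exact binomial, 18.3% to 18.7%) in the first replicate and 13.9% (13.7% to 14.1%) in the other.

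**Figure D4:**
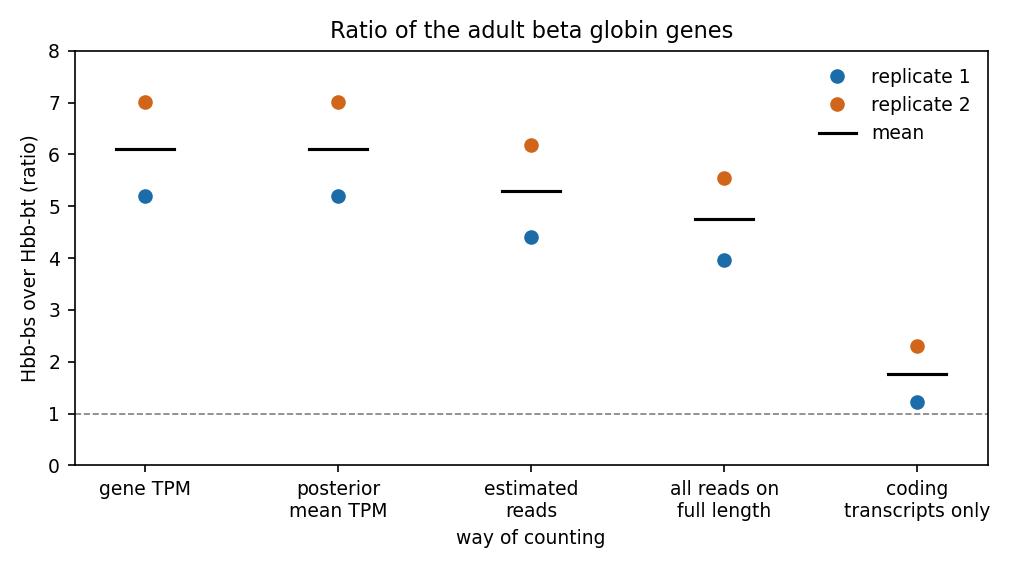
Ratio of Hbb-bs to Hbb-bt in each library (points) with the mean of the 2 libraries (bars), by 5 ways of counting, where the dashed line marks a ratio of 1. All points lie above 1, and the mean falls from 6.11 by gene TPM to 1.77 with coding transcripts only.

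Together the adult genes held 0.543% of all reads in replicate 1 (0.540% to 0.546%) and 0.844% in replicate 2 (0.840% to 0.849%). Of TPM they held 1.02% and 1.48%, or 0.366% and 0.610% with the coding transcripts of Hbb-bs only. The replicate with fewer reads had the higher share each way.

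Between the libraries the members moved unevenly. The ratio of replicate 2 over replicate 1 compares 1 library with 1 and has no test. After TMM scaling, which sets libraries level on most genes, Hbb-bs was 1.32-fold higher in replicate 2 (counting interval 1.31 to 1.33), a log2 ratio of 0.40. Hbb-bs was the higher in replicate 2 under every scaling tried, with log2 ratios from 0.25 with the GC trend removed to 0.72 by library totals. Hbb-bt had a log2 ratio of -0.08 after TMM scaling and the opposite sign by library totals (0.23) and by TPM (0.17). Neither gene passed 2-fold, while 31.4% of the 13522 genes whose mean count reached 10 did.

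For the embryonic genes these ratios rest on few reads. Hbb-bh1, at 1 and 9 reads, had a ratio of 6.65 with a counting interval of 1.86 to 587. Hbb-y, at 2 and 4 reads, had 2.24 with an interval of 0.427 to 32.9, which includes 1. Both fall below the mean of 10 counts and stand outside the 31.4%. The ratio between the libraries also moved with GC content across genes. The 935 genes within 1 percentage point of the 52.0% GC of Hbb-bs had a median log2 ratio of 0.19, and its log2 ratio with the GC trend removed was 0.25.

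The 5 alpha-like partners were all higher in TPM in replicate 2. Of 21474 protein-coding genes, 8537 (39.8%) were higher in replicate 2 and 6502 in replicate 1. A further 6335 had no signal in either library, so the 39.8% understates the share among genes with signal. Hba-a1 and Hba-a2, the adult alpha genes, stood at 9832 and 6026 TPM in replicate 1 and at 18523 and 39530.3 in replicate 2. They are near-identical copies, so their sum was used. That sum over the adult beta sum was 1.56 and 3.93 by TPM and 1.35 and 3.28 by estimated reads. With the coding transcripts of Hbb-bs only it was 4.33 and 9.52 by TPM. The embryonic Hba-x had 1.52 and 8.75 TPM on 24 and 85 reads, above Hbb-y and Hbb-bh1 in both libraries. The theta genes Hbq1b (78.7 and 205 TPM) and Hbq1a (1.67 and 6.25 TPM) were also above them.

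Regulators of the locus were expressed nearly throughout. Of 15 listed factors of the locus control region and the promoters, not all of them activators, 15 reached 1 TPM in each library. Of all protein-coding genes 45.5% did. The median of the 15 was 81.1 TPM, beside 0.6 over all protein-coding genes. Zfpm1, the partner of GATA factors, led at 276 and 513 TPM. Gata1, which binds the enhancers and promoters of the locus, stood at 209 and 388. Ldb1, which helps to loop the enhancers to the adult genes, had 215 and 374, and Gtf2i 207 and 304. Mafk, a partner of Nfe2, had 12.6 and 14.9 TPM, and Lmo2, a bridging protein of the Gata1 and Tal1 complex, was the lowest at 3.97 and 10.1.

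Chromatin and looping factors were at 1 TPM or more in each library in 8 of 8 cases, against 45.5% of protein-coding genes, with a median of 82.4 TPM. The cohesin gene Rad21 stood at 1418 and 1900 TPM, close to Hbb-bt in level. Smarca4, the remodeling ATPase, had 195 and 309, the cohesin gene Smc3 207 and 62.9 and Ctcf, the gene of an insulator-binding protein, 83.9 and 97.3. The acetyltransferase genes Ep300 (38.8 and 38.0 TPM) and Crebbp (16.5 and 8.66) were lowest.

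Of 19 genes listed for the control of embryonic or fetal globin genes, not all of them repressors, 18 reached 1 TPM in each library. Of protein-coding genes 45.5% did, and the median of the 19 was 36.8 TPM. Hdac2, a histone deacetylase, was highest at 932 and 280 TPM, followed by the DNA methyltransferase gene Dnmt1 at 194 and 315, the remodeler gene Chd4 at 146 and 150 and Mbd2, a reader of DNA methylation, at 185 and 105. Nr2c1, an orphan receptor gene of the direct repeat complex, had 2.98 and 3.20 TPM. Lin28b, the gene below that level, had 1 read in replicate 1 and 0 in replicate 2. No relation between the levels of these genes and of the embryonic globins was tested.

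**Figure D5:**
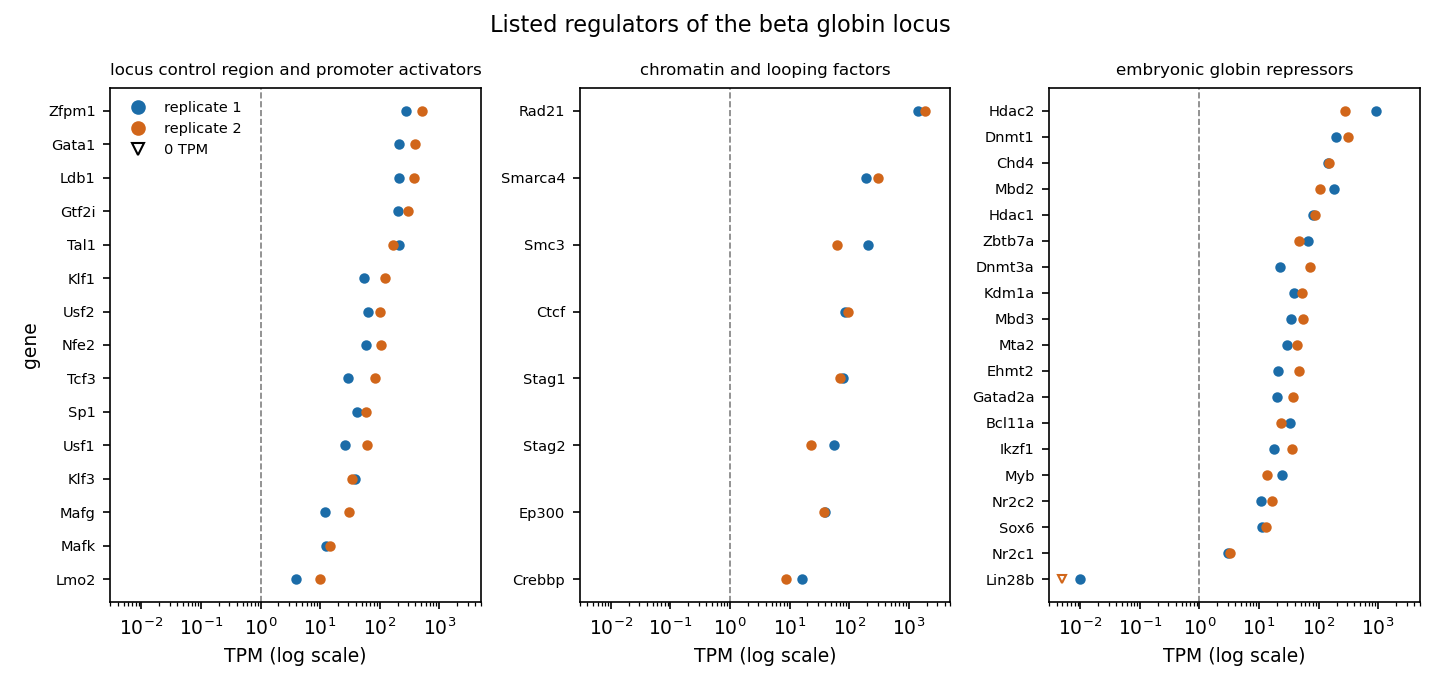
TPM (log scale) of listed regulators of the beta globin locus in each library, in 3 panels by list and ordered by mean. The dashed line is at 1 TPM and an open triangle stands for 0. Panel titles are the names of the lists, and not every gene has the role named. All genes but Lin28b lie right of the line in both libraries.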

How the data were processed

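Per the labels and the README of each library, reads were placed on mm10 and quantified with GENCODE M4. No source used here names the program, its version or its strand setting. Deposited by the authors were expected counts (estimated reads, unscaled), TPM and FPKM (scaled for length and depth), posterior means with bounds, and the percent of each gene's TPM held by each transcript. FPKM values are not reported. Members, lists and alternatives were chosen with earlier results of these data known.

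Symbols, coordinates and transcript sequences came from GENCODE M21 (mm10), which matched 42462 of 43346 genes, and promoters from RefSeq. With 1 group, no test between conditions was possible. Expected counts were rounded for edgeR 4.0.16 (TMM, prior count 1) and DESeq2 1.42.0 size factors in R 4.3.3, and the ratio step was tested on simulated data. Other steps used Python 3.11.15, pandas 2.3.3, numpy 2.4.6, scipy 1.17.1, statsmodels 0.14.6 and matplotlib 3.10.9. GC content was handled by a lowess fit (span 0.3) to 8894 protein-coding genes whose mean count reached 100. GC values existed for 98.8% of genes at that count. Named genes were all members, globin lists in full, the 4 highest and 2 lowest of each regulator list, neighbours in rank, and neighbours within 100 kb. Cell type markers given singly were picked after their values were seen. Sequence windows were planned at 36 bases, and 45 was added after the effective lengths were seen. Some listed genes are not reported here, and the counts and medians leave them out.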

Additional observations from a re-analysis of the deposited data

How the results depend on the processing

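Of 28 alternatives for the levels, shares and ratios within the locus that kept both libraries, 19 stayed within 1 SD and 9 did not. With coding transcripts only, the mean Hbb-bs level was 3135 TPM, the adult share 0.488% of TPM, the embryonic share 0.0160% of beta-like TPM and the alpha over beta ratio 6.93, against 10745 TPM, 1.25%, 0.00646% and 2.74. The mean ratio of Hbb-bs to Hbb-bt was 4.75 with all reads on the full-length transcript and 1.77 with coding transcripts only, against 6.11. Hbb-bt rose to 2129 TPM, past 1 SD, when TPM was rescaled to genes outside the mitochondrial genome. The same rescaling raised Hbb-bs to 13098 TPM, Hbb-y to 0.364 and Hbb-bh1 to 0.738, each within its own SD. Adult beta globin took 0.694% of estimated reads against 1.25% of TPM, and Hbb-bh2 had a posterior mean of 0.135 TPM with 0 reads. The log2 ratio of Hbb-bt between the libraries, -0.08, was 0.23 by library totals and 0.17 by TPM. Leaving out a library leaves the value of the other, which with 2 libraries always lies within 1 SD of the mean and shows no stability. So taken, Hbb-bs ranged from 8546 to 12945 TPM and its ratio to Hbb-bt from 5.21 to 7.01. Hbb-bt ranged from 1641 to 1846 TPM, Hbb-y from 0.13 to 0.47 and Hbb-bh1 from 0.07 to 1.15. The embryonic share ranged from 0.00196% to 0.0110% of beta-like TPM, the adult share from 1.02% to 1.48% of all TPM and the alpha over beta ratio from 1.56 to 3.93. Depth limits the embryonic genes, with 1 to 9 reads, and Hbb-bh2 and the pseudogenes, with 0. No paired analysis was possible because there was 1 group.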
